A study of Homo sapiens with 6 samples.

Results

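Aminoacyl-tRNA synthetases are the enzymes that attach each amino acid to its transfer RNA (tRNA). The genes described here are the 36 synthetase genes that the count table lists by name, 20 encoding cytosolic enzymes and 16 encoding mitochondrial enzymes, among 17222 gene names in all. They were chosen by name and not by a measured value, though with earlier results of these data known. The table uses older symbols without a final 1 (*CARS* for the gene now called *CARS1*), and a final 2 marks a mitochondrial enzyme.

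Human cells keep separate sets of synthetases for the ribosomes of the cytosol and for those of the mitochondria, and nuclear genes encode both. The enzymes fall into 2 structural classes with unrelated catalytic folds, and several cytosolic ones are held together in the multisynthetase complex. When amino acids run short, uncharged tRNA activates the kinase GCN2 (gene *EIF2AK4*), translation of the transcription factor ATF4 increases, and ATF4 activates genes of amino acid synthesis, amino acid import and tRNA charging. Many cytosolic synthetase genes are known ATF4 targets, whereas most mitochondrial ones are not.

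The libraries came from H226, an established human cell line labelled as squamous lung carcinoma. The study's methods paragraph on RNA-seq speaks of BJ fibroblasts instead, and the sample labels were followed here. The cells were transiently transfected with ASO_LINC#3, an antisense oligonucleotide against the long noncoding RNA *SWINGN* (*LINC00565*), or with the control ASO_CTRL, and their RNA was collected 48 h later. Each group had 3 libraries of total RNA reverse transcribed with oligo dT. The comparison asked which mRNA levels changed when *SWINGN* was targeted in these cells. A single antisense oligonucleotide and a single cell line were used, so effects of this oligonucleotide and of *SWINGN* loss cannot be told apart. Depletion of *SWINGN* could not be checked, because its row was not analysed here. The labels do not say whether the replicates were separate cultures, and the p-values measure the spread between these libraries only.

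Reads counted on genes ranged from 5738340 to 10546786 in the ASO_CTRL libraries and from 3686828 to 6780016 in the ASO_LINC#3 libraries. ASO_LINC#3 replicate 3 had the fewest reads and stood apart from the other 2 ASO_LINC#3 libraries in a way that followed the GC content of the transcripts. Across the 36 synthetase genes, the difference between its log2 change and the mean change of replicates 1 and 2 had a Pearson r of 0.62 with GC content (n = 36 genes measured in the same libraries), and across 12790 genes r was 0.57. Results that moved most with this library are therefore given with and without it. Of 10 squamous markers, 4 were in the table, and *KRT13*, *KRT14*, *TP63*, *SOX2*, *DSG3* and *PKP1* were not. *KRT5*, a keratin of squamous and basal epithelium, averaged 103 CPM (read counts scaled to a common library size) in ASO_CTRL and 69.0 in ASO_LINC#3, while *KRT6A* averaged 0.032 and 1.33. The desmosomal cadherin gene *DSC3* fell from 42.5 to 23.0 CPM (log2 fold change -0.88, adjusted p = 0.00571 in edgeR), *PERP* averaged 175 and 190 CPM, and the 4 together summed to between 303 and 336 CPM in ASO_CTRL and between 270 and 299 CPM in ASO_LINC#3. The 4 simple epithelial markers in the table summed to between 11696 and 12642 CPM in the ASO_CTRL libraries and to 7480, 7103 and 12434 CPM in the ASO_LINC#3 libraries. All 6 mesothelial markers reached 1 CPM, and their sum was between 880 and 1069 CPM in ASO_CTRL and between 325 and 438 CPM in ASO_LINC#3. *CALB2* fell from 601 to 154 CPM (log2 fold change -1.97, adjusted p = 0.000195 in edgeR) and *LRRN4* from 143 to 47.6 CPM (-1.58, adjusted p = 3.30e-05). Of the 6, 5 had negative fold changes, and *MSLN*, at 29.1 and 31.1 CPM, had the positive one. Of 10 fibroblast markers 4 were in the table, with sums of 389 to 487 and 221 to 250 CPM, and of 6 leukocyte markers only *CD68*, at 1.37 and 4.13 CPM. At the thresholds given below, 2 of the 3 fibroblast markers tested were called lower, beside 2.63% of all genes tested. The part of these shifts in the results below was not tested, and in bulk RNA a smaller number of cells of one kind and less RNA per cell cannot be told apart.

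Targeting *SWINGN* was accompanied by higher mRNA of 2 cytosolic synthetases, *CARS* and *GARS*, and by lower mRNA of another, *FARSB*. Calls required both a log2 fold change of more than 0.5 in either direction and a Benjamini-Hochberg adjusted p-value under 0.01 in edgeR's quasi-likelihood F-test, and all 36 synthetase genes passed the filter on low counts. Calls covered 3 of the 36 (8.33%), beside 7.54% of the 14660 genes tested, so the share of synthetase genes called was close to that of all genes. In the higher direction there were 2 calls, where 4.91% of all genes were called, and in the lower direction 1, where 2.63% were called. Without adjustment, 14 of the 36 had an edgeR p-value below 0.05, 9 higher and 5 lower, beside 4752 of the 14660 genes tested. None of the 16 mitochondrial genes was called by edgeR or by DESeq2, and 3 of them had an unadjusted edgeR p-value below 0.05.

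The direction of the changes differed between the compartments as a description. Among the cytosolic genes the fitted log2 fold change was positive for 12 and negative for 8, with a median of 0.12. Among the mitochondrial genes it was negative for 15 of 16, with a median of -0.17, and *TARS2*, the mitochondrial threonyl-tRNA synthetase, at 0.13 was the exception. Over all genes tested, 7292 were positive and 7368 negative, with a median of -0.0027. The CPM of the 20 cytosolic genes summed to 1988, 1862 and 1973 in the ASO_CTRL libraries and to 2288, 2282 and 2171 in the ASO_LINC#3 libraries. The mitochondrial sums were 347, 329 and 327 CPM in ASO_CTRL and 289, 274 and 296 CPM in ASO_LINC#3. Neither pair of sums overlapped between the groups, and they moved in opposite directions. Abundant genes weigh most in such sums, and mean CPM rose from 147 to 228 for *GARS*, from 134 to 208 for *MARS* and from 143 to 207 for *TARS*. The contrast did not hold for every cytosolic gene. Those not listed below as known ATF4 targets had a median log2 fold change of -0.16, near the mitochondrial -0.17.

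**Figure D1:**
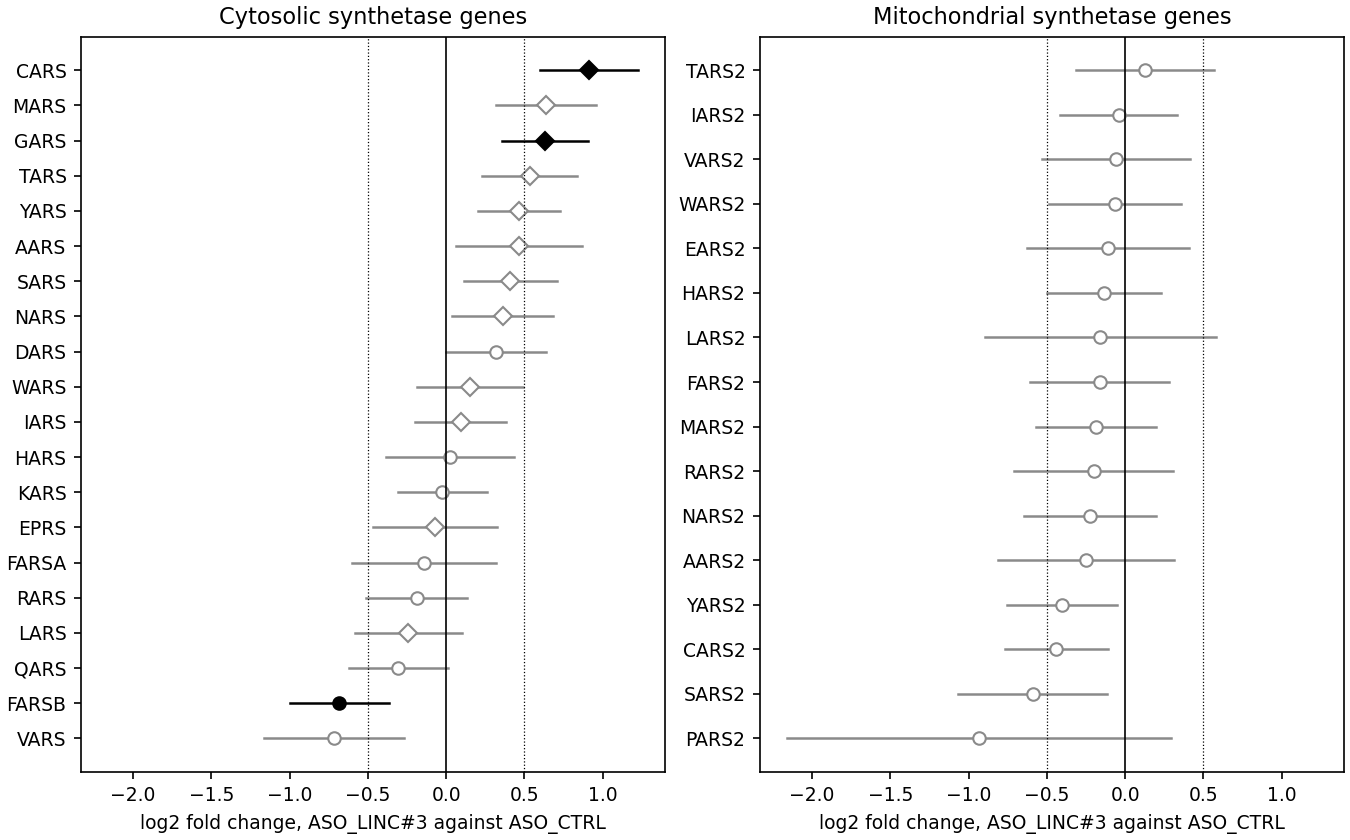
Fitted log2 fold change of each synthetase gene, ASO_LINC#3 against ASO_CTRL, with its 95% confidence interval (3 libraries per group). Filled symbols are called genes, diamonds are known ATF4 targets among the cytosolic genes, and dotted lines mark the bound of 0.5 in either direction. *CARS* and *GARS* lie to the right and *FARSB* to the left, and every mitochondrial gene but *TARS2* lies left of 0 without a call.

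*CARS*, which charges cysteine tRNA, showed the largest increase of the 36. Its mRNA measured 29.2, 29.4 and 28.2 CPM in the ASO_CTRL libraries and 48.4, 54.4 and 61.5 CPM in the ASO_LINC#3 libraries. Every ASO_LINC#3 library was above every control, with a wide gap between the groups. It rose by 0.91 ± 0.14 on the log2 scale (fitted change ± standard error, adjusted p = 0.00182 in edgeR). The gene lies on chromosome 11 of GRCh37 from 3022152 to 3078843. The call was lost when any 1 control library was left out (adjusted p from 0.0111 to 0.0190 in edgeR) and was kept without any 1 ASO_LINC#3 library.

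*GARS*, the glycyl-tRNA synthetase, is transcribed from chromosome 7 (30620149 to 30673649) and supplies both the cytosolic and the mitochondrial enzyme. It measured 160, 141 and 141 CPM in ASO_CTRL and 237, 240 and 208 CPM in ASO_LINC#3. The groups did not overlap, and replicate 3 was the lowest of the ASO_LINC#3 libraries. The increase was 0.63 ± 0.13 on the log2 scale (adjusted p = 0.00673 in edgeR). Per kilobase of transcript *GARS* had the second highest level of the 36 in both groups, 60.5 CPM per kb in ASO_CTRL and 93.7 in ASO_LINC#3.

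*FARSB* encodes the beta subunit of the cytosolic phenylalanyl-tRNA synthetase, which works as a tetramer of alpha and beta subunits. Its values were 68.6, 60.7 and 58.2 CPM in ASO_CTRL and 42.0, 40.4 and 33.9 CPM in ASO_LINC#3, with no overlap and the lowest value in replicate 3. The fitted change was -0.68 ± 0.14 on the log2 scale (adjusted p = 0.00891 in edgeR). *FARSA*, the gene of the alpha subunit, measured 45.8, 53.7 and 44.9 CPM in ASO_CTRL and 37.2, 34.1 and 61.0 CPM in ASO_LINC#3. Its first 2 ASO_LINC#3 libraries lay below all controls and replicate 3 above all of them, and the log2 fold change was -0.14 (adjusted p = 0.684 in edgeR). *GARS* and *FARSB* each kept their call in only 1 of the 6 fits that left out a library, the fit without ASO_LINC#3 replicate 3, and their adjusted p-values in the other 5 reached 0.0481 and 0.0466.

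Another 3 cytosolic genes, *MARS*, *TARS* and *VARS*, missed the thresholds with all libraries. They were called when ASO_LINC#3 replicate 3 was left out, a fit that called 17.2% of all genes. DESeq2, which called 10.9% of all genes, also called *MARS* (adjusted p = 0.00229) and *TARS* (adjusted p = 0.00892). *MARS*, which charges both initiator and elongator methionine tRNA, measured 144, 119 and 140 CPM in ASO_CTRL and 206, 240 and 179 CPM in ASO_LINC#3. All 3 ASO_LINC#3 values were above the controls, with a log2 fold change of 0.64 (adjusted p = 0.0132 in edgeR, and 0.000853 without replicate 3). *MARS* overlaps *DDIT3* and *ARHGAP9*, which lie on the opposite strand, over 12.4% of its exonic bases, and *DDIT3* rose from 61.9 to 190 CPM. The strand setting of the counting is not stated, so reads from the shared bases cannot be told apart.

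*TARS*, the threonyl-tRNA synthetase, measured 141, 134 and 154 CPM in ASO_CTRL and 235, 208 and 178 CPM in ASO_LINC#3. The groups did not overlap, and replicate 3 came nearest to the controls. Its log2 fold change was 0.54 (adjusted p = 0.0224 in edgeR, and 0.00132 without replicate 3). *VARS*, the valyl-tRNA synthetase, which binds the elongation factor complex of the cytosol, measured 58.3, 42.3 and 49.6 CPM in ASO_CTRL and 29.4, 23.3 and 39.9 CPM in ASO_LINC#3. All ASO_LINC#3 libraries were below the controls, and the log2 fold change of -0.72 was the lowest of the cytosolic genes (adjusted p = 0.0333 in edgeR, and 0.00140 without replicate 3). *VARS* has the highest GC content of the 36 transcripts (61.7%), and with the effect of GC content and length removed in each library its adjusted p-value was 0.00536.

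**Figure D2:**
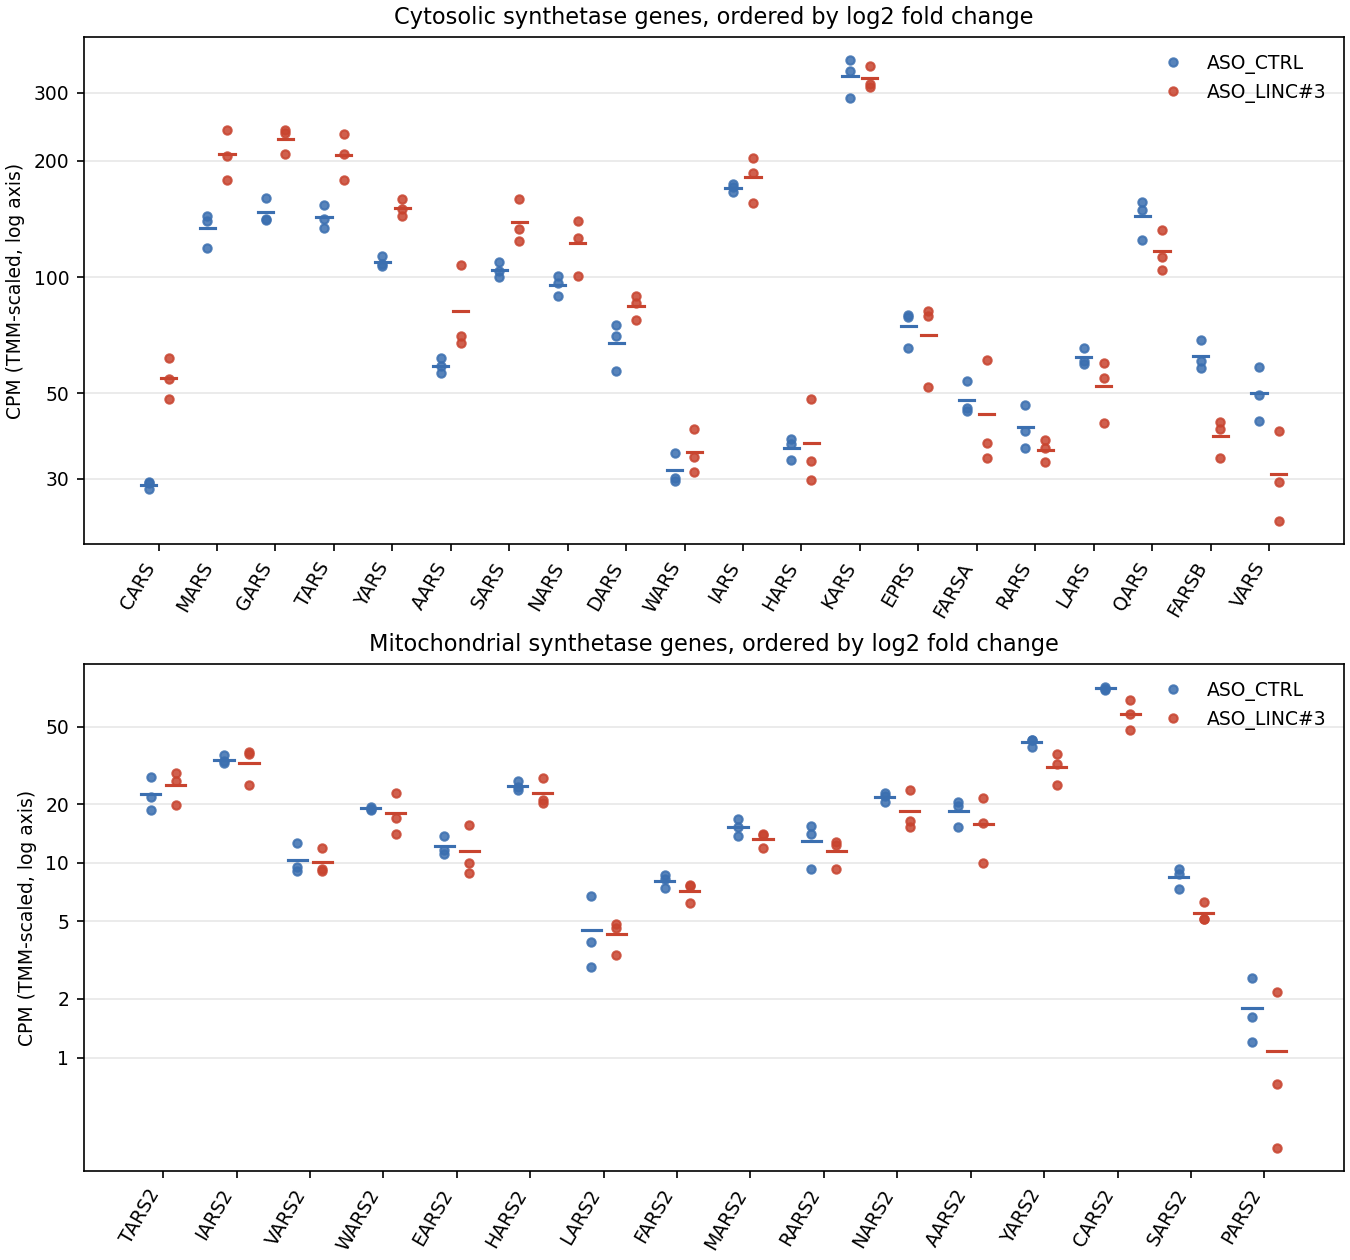
Level of each synthetase gene in each of the 6 libraries, in CPM scaled by edgeR's TMM factors on a log axis, with the cytosolic genes above and the mitochondrial genes below. Points are libraries and short lines are group means. The ASO_LINC#3 points of *CARS*, *GARS*, *MARS*, *TARS* and *YARS* lie above all their control points, and those of *FARSB* and *VARS* below.

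Of the 20 cytosolic genes, 9 had all ASO_LINC#3 libraries above all controls, where 18.7% of all genes did, and 2 had them all below, where 17.3% of all genes did. Beside *CARS*, *GARS*, *MARS* and *TARS*, the 9 included the genes of the tyrosyl (*YARS*, log2 fold change 0.47, adjusted p = 0.0217 in edgeR), alanyl (*AARS*, 0.47, adjusted p = 0.1002) and seryl (*SARS*, 0.41, adjusted p = 0.0575) enzymes. The last were the asparaginyl (*NARS*, 0.36, adjusted p = 0.114 in edgeR) and aspartyl (*DARS*, 0.32, adjusted p = 0.154) enzymes. None of these 5 passed the thresholds, and 4.1% of the exonic bases of *YARS* are shared with *S100PBP* on the opposite strand. *AARS* rested most on 1 library, with 67.6, 70.3 and 108 CPM in ASO_LINC#3 beside 56.3 to 61.8 CPM in ASO_CTRL, and its log2 fold change was 0.23 without ASO_LINC#3 replicate 3. Without that library, 10 of the 20 lay above all controls, where 29.4% of all genes did. The remaining 9 overlapped between the groups and had log2 fold changes between -0.30 (*QARS*, glutamine) and 0.15 (*WARS*, tryptophan). *HARS* (histidine, 0.03) and *HARS2* (-0.14) lie head to head, and 8.5% and 7.0% of their exonic bases are shared with each other or with further neighbours. *KARS*, which charges lysine tRNA for cytosol and mitochondria from 1 gene and had the highest level per kilobase of the 36 (167 CPM per kb in ASO_CTRL), had a log2 fold change of -0.02 with a 95% interval from -0.31 to 0.26.

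The cytosolic genes were then grouped by known properties of the genes, and these subgroups were chosen with earlier results of these data known. The 12 genes listed as known ATF4 targets (*AARS*, *CARS*, *EPRS*, *GARS*, *IARS*, *LARS*, *MARS*, *NARS*, *SARS*, *TARS*, *WARS* and *YARS*) had a median log2 fold change of 0.44. Of them 2 were called higher, beside 4.91% of all genes, none was called lower, beside 2.63%, and 10 had a positive fold change. In 8 the ASO_LINC#3 libraries lay above all controls, beside 18.7% of all genes, and in 9 without ASO_LINC#3 replicate 3, beside 29.4%. The bifunctional glutamyl-prolyl enzyme gene *EPRS* (-0.07) and the leucyl gene *LARS* (-0.24) were the negative ones. The other 8 cytosolic genes had a median of -0.16, with 2 positive and 6 negative, 1 of them called lower. Without replicate 3 of ASO_LINC#3 the medians were 0.39 and -0.30, and with the correction for GC content and length they were 0.40 and -0.16.

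The 8 members of the multisynthetase complex included none of the called genes, where 7.54% of all genes were called, and their median log2 fold change was -0.05. *MARS*, at 0.64, and *QARS*, at -0.30, marked the ends of their range, with 3 positive and 5 negative values. The 12 cytosolic genes outside the complex had a median of 0.39, with 2 called higher, beside 4.91% of all genes, and 1 lower, beside 2.63%. By structural class, the median was 0.09 for the 9 class I genes and 0.34 for the 10 class II genes, leaving out *EPRS*, whose protein holds an enzyme of each class. These subgroups share members, and no test was made between them.

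Promoter sequence was looked at because the ATF4 targets share a known element. ATF4 binds, as a dimer with C/EBP proteins, the C/EBP-ATF response element, whose core was searched as TGATGNAA on both strands (TTNCATCA on the other) as the only motif. The windows were RefSeq promoters of GRCh38.p14, 300 bases long, from 250 bases before a gene's start to 50 after it. A window was found for 30 of the 36 genes, and none for *DARS*, *LARS*, *VARS*, *YARS*, *AARS2* and *VARS2*. The motif was present for 7 of 16 cytosolic genes and 1 of 14 mitochondrial genes, beside 4.46% of all genes with a window and 3.62% of all 35116 windows. A gene was counted if any of its windows held the motif. *CARS*, *GARS* and *TARS* each held it in 1 of 2 windows. All 7 cytosolic genes with a match were among the 10 known ATF4 targets with a window, and none of the other 6 had a match. Known targets share this element and were listed with earlier results known, so the matches among them are not independent support. The matches are shown with 30 bases of context, read 5′ to 3′ on the strand of the gene, with the motif in capitals.
CARS: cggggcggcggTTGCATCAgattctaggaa
MARS: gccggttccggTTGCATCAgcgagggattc
GARS: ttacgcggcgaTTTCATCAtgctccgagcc
TARS: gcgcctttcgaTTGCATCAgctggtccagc
AARS: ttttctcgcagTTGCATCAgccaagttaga
NARS: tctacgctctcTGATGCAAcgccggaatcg
IARS: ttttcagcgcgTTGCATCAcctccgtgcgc
YARS2: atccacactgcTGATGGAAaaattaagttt

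In GRCh38.p14 these stretches lie at chr11:3057407-3057436 on the minus strand for *CARS*, at chr12:57488053-57488082 on the plus strand for *MARS*, at chr7:30594834-30594863 on the plus strand for *GARS* and at chr5:33440956-33440985 on the plus strand for *TARS*. Those of *AARS* (chr16:70289675-70289704), *NARS* (chr18:57621804-57621833), *IARS* (chr9:92293692-92293721) and *YARS2* (chr12:32756076-32756105) are on the minus strand. In *CARS*, *MARS*, *IARS*, *TARS*, *NARS* and *GARS* the match began between positions -33 and 14, and in *AARS* and *YARS2* at positions -187 and -197. Positions count bases along the gene's strand from the start on which the matching window was built. The 7 cytosolic genes with a match had log2 fold changes from 0.09 (*IARS*) to 0.91 (*CARS*) and a median of 0.54, and the 9 with a window and no match had a median of -0.07, from -0.68 (*FARSB*) to 0.41 (*SARS*). *YARS2*, with the match farthest from the start, had a log2 fold change of -0.40. A match is a description of the letters in the window and does not show that the factor binds there. Whether the motif has a part in these changes was not tested.

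The mitochondrial genes were less abundant, from 0.762 CPM per kb (*PARS2*) to 42.8 (*CARS2*) in ASO_CTRL with a median of 5.42, beside a median of 24.2 for the cytosolic genes. In 3 of the 16 all ASO_LINC#3 libraries lay below all controls, which was also so for 17.3% of all genes, so this count was close to the background. *CARS2*, the mitochondrial cysteinyl enzyme, had the smallest p-value of the 16, with 77.44, 80.02 and 78.32 CPM in ASO_CTRL and 58.1, 47.9 and 68.6 CPM in ASO_LINC#3. Its controls lay close together and all 3 ASO_LINC#3 values were below them, with a log2 fold change of -0.44 (adjusted p = 0.0663 in edgeR). Without ASO_LINC#3 replicate 3 it was -0.57 (adjusted p = 0.00401 in edgeR), the only mitochondrial call in any fit that left out a library. That fit called 17.2% of all genes.

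*SARS2*, the mitochondrial seryl enzyme, measured 9.29, 8.78 and 7.35 CPM in ASO_CTRL and 6.32, 5.13 and 5.15 CPM in ASO_LINC#3, a log2 fold change of -0.59 (adjusted p = 0.0824 in edgeR). *YARS2*, the mitochondrial tyrosyl enzyme, measured 42.7, 42.5 and 39.2 CPM in ASO_CTRL and 36.2, 32.0 and 24.9 CPM in ASO_LINC#3, a log2 fold change of -0.40 (adjusted p = 0.104). In both genes the groups did not overlap, and neither passed the thresholds. *PARS2*, the mitochondrial prolyl enzyme, had the lowest fitted value, -0.93, with 2.56, 1.205 and 1.62 CPM in ASO_CTRL and 0.735, 0.342 and 2.17 CPM in ASO_LINC#3. These values overlapped, rested on as few as 2 reads in a library, and gave a 95% interval from -2.16 to 0.29 (adjusted p = 0.277 in edgeR). Without ASO_LINC#3 replicate 3 the fitted value of *PARS2* was -1.68. The other 12 had log2 fold changes between -0.25 (*AARS2*) and 0.13 (*TARS2*), with overlap between the groups in each.

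The libraries did not contribute evenly to the mitochondrial direction. In ASO_LINC#3 replicate 1, 14 of the 16 genes were below the control mean, in replicate 2 12 were, and in replicate 3 8 were below and 8 above. With GC content and length corrected for, the numbers below were 15, 13 and 9. The fitted median was -0.17, it was -0.26 without replicate 3, when 13 of 16 were negative, and -0.22 with the correction, when 15 of 16 were. Of the cytosolic genes, 13, 11 and 12 of 20 were above the control mean in replicates 1, 2 and 3.

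Split by GC content, the library differences were plain. The 18 synthetase genes with a transcript GC content of 50% or more had a median log2 change of -0.18 in replicates 1 and 2 and of 0.25 in replicate 3. The 12 with a GC content under 45% had medians of 0.08 and -0.36. The same split over all tested genes gave -0.16 and 0.18 at high GC and 0.16 and -0.15 at low GC. *EPRS* and *IARS2*, both of low GC content, were above the controls' mean in replicates 1 and 2 and below it in replicate 3, and *FARSA* and *AARS2*, of high GC content, showed the opposite.

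**Figure D3:**
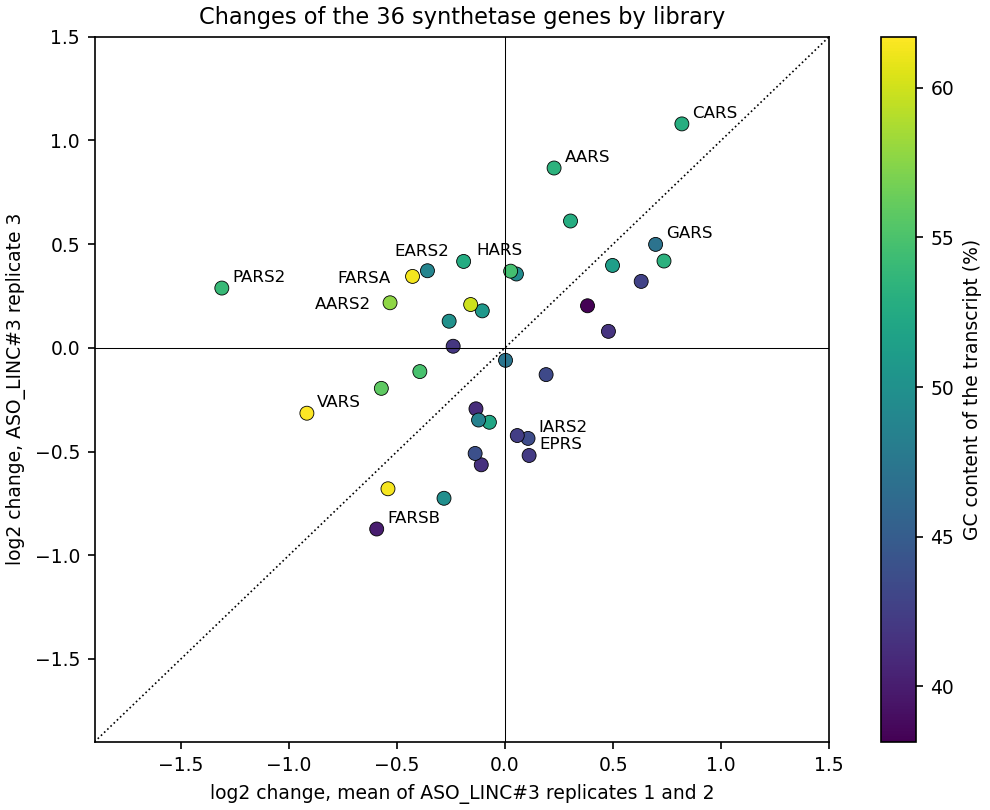
Log2 change of each synthetase gene against the control mean in ASO_LINC#3 replicate 3 (vertical axis) and in the mean of replicates 1 and 2 (horizontal axis), on log2 CPM with a prior count of 2. Each point is 1 of the 36 genes, coloured by the GC content of its transcript in percent, the dotted line marks equal changes, and genes that were called or that differ by more than 0.5 are named. Points of high GC content lie mostly above the line and those of low GC content below it, while *CARS*, *GARS* and *FARSB* keep their direction on both axes.

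To set the compartments side by side for each amino acid, the log2 ratio of the cytosolic to the mitochondrial gene was computed within each library for 17 pairs. In 6 pairs the ratio was higher in every ASO_LINC#3 library than in every control, for cysteine by 1.35, serine by 0.99, tyrosine by 0.89, methionine by 0.83, alanine by 0.72 and asparagine by 0.61. In 2 pairs it was lower in every one, with differences of -0.68 for valine and -0.52 for *FARSB* over *FARS2*, and 9 pairs overlapped. No background share was computed for pairs of genes, so these counts cannot be set against one. Among single genes tested, 36.1% did not overlap between the groups in either direction. For cysteine the ratio went from -1.40, -1.43 and -1.46 in ASO_CTRL to -0.26, 0.18 and -0.16 in ASO_LINC#3, so the mRNA of *CARS* came near that of *CARS2* in CPM. Each of the 8 separated pairs had p = 0.1 in an exact two-sided permutation test, the smallest that 3 libraries against 3 can give, and an adjusted p of 0.212 over the 17 pairs in the same exact test. No pair could therefore pass a threshold of 0.05. The pairs that use *EPRS* or *FARS2* share that gene.

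**Figure D4:**
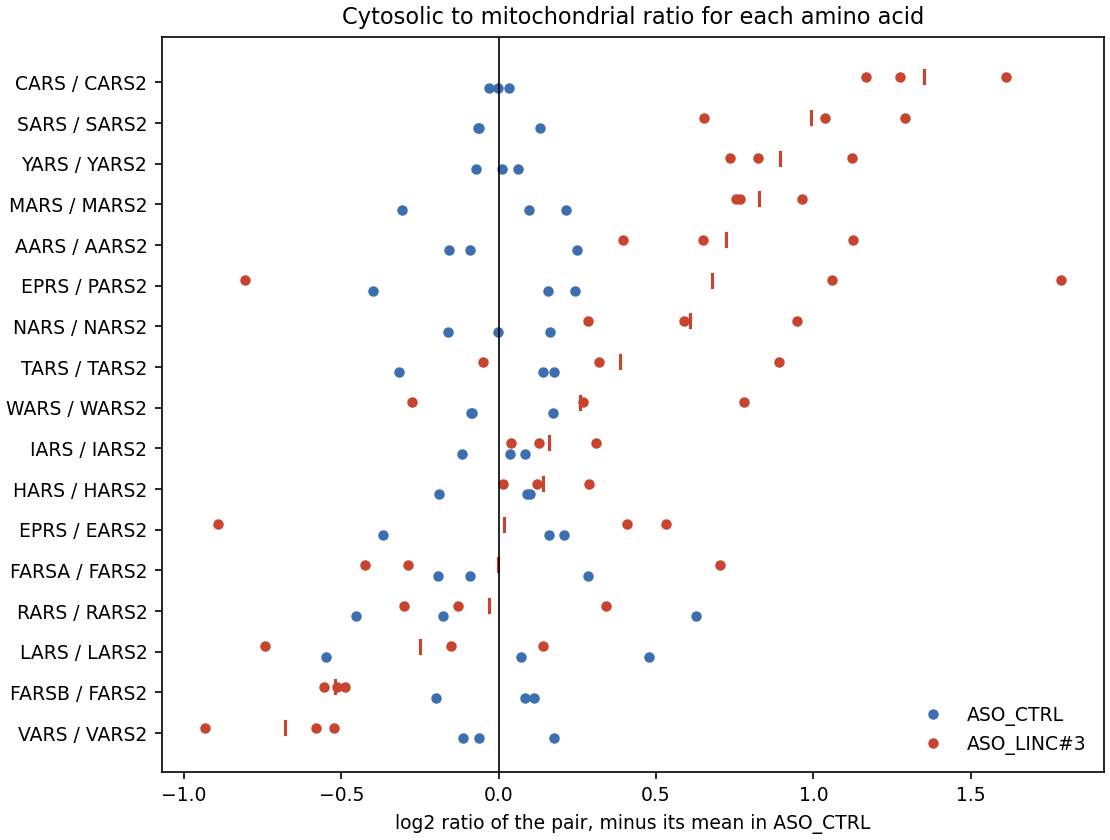
Log2 ratio of the cytosolic to the mitochondrial synthetase mRNA in each library, as the difference from the mean of the 3 ASO_CTRL libraries, for the 17 pairs. Points are libraries and red ticks are the ASO_LINC#3 means. The ASO_LINC#3 points of *CARS*/*CARS2* lie farthest to the right of the controls, and those of *VARS*/*VARS2* and *FARSB*/*FARS2* lie to the left.

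Other genes of tRNA charging were read from a list of 20, of which 18 were in the table and 17 were tested. None was called in either direction, their median log2 fold change was -0.20, and 5 were positive and 12 negative. The smallest p-values belonged to *PSTK*, the kinase of the selenocysteine tRNA pathway (1.01, adjusted p = 0.0209 in edgeR), *PET112*, a subunit of the mitochondrial glutamyl-tRNA amidotransferase (0.68, adjusted p = 0.0243), and *XPOT*, which exports tRNA from the nucleus (0.53, adjusted p = 0.0305). Of the scaffold proteins of the multisynthetase complex, *AIMP2* had -0.46 (adjusted p = 0.0552 in edgeR), *EEF1E1* -0.36 and *AIMP1* 0.14. *EIF2AK4*, the gene of GCN2, had -0.05.

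Of 30 listed genes of the ATF4 amino acid response, 12 were called higher, beside 4.91% of all genes, and none was called lower, beside 2.63%. Their median log2 fold change was 0.62, with 26 positive and 4 negative. The negative ones were *PSPH* (-0.50), *ATF5* (-0.36), *CTH* (-0.24) and *PYCR1* (-0.24). This list too was chosen with earlier results of these data known. The 8 with the smallest p-values were the mTOR inhibitor gene *DDIT4* (2.19), the transcription factor genes *ATF3* (1.85) and *DDIT3* (1.61), the pseudokinase gene *TRIB3* (1.32), the secreted glycoprotein gene *STC2* (1.89), asparagine synthetase *ASNS* (1.25), the leucine sensor gene *SESN2* (1.15) and the cystine transporter gene *SLC7A11* (1.52), with adjusted p-values from 5.83e-06 to 0.000567 in edgeR. The largest increase among the synthetases, 0.91 for *CARS*, was smaller than each of these 8. Reads of *DDIT3* on the bases it shares with *MARS* cannot be told apart from those of *MARS*. *ATF4* mRNA itself had a log2 fold change of 0.72 (adjusted p = 0.0150 in edgeR) and did not pass. Of 14 mitochondrial translation factor genes, none was called, and their median was -0.18, near that of the mitochondrial synthetases.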

How the data were processed

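RNA-seq libraries of H226 cells, 3 transfected with ASO_CTRL and 3 with ASO_LINC#3, were grouped by the sample labels. Per the study's methods and the submitters' processing notes, reads were aligned to hg19 with STAR. The authors deposited raw read counts per gene name, without normalization. How reads were counted (tool, gene annotation, strand) is not given in the sources used here. Totals of reads assigned to no gene, 24.8% to 28.1% of each library, entered neither library sizes nor tests, and 1 gene name occurred more than once.

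The groups were compared with edgeR 4.0.16 in R 4.3.3: filterByExpr (14660 of 17222 genes), TMM scaling, quasi-likelihood F-test, Benjamini-Hochberg adjustment over all tested genes, and calls at an adjusted p-value below 0.01 with a log2 fold change beyond 0.5. The common biological coefficient of variation was 0.159. Replicates of a group differed by more than sampling noise (chi-square per degree of freedom from 2.50 to 14.0), so each library counted as 1 replicate. Levels are TMM-scaled CPM and are given per library or summed. For single libraries, the control mean was subtracted from log2 CPM (prior count 2), and pair ratios were tested by exact permutation over libraries. Levels per kilobase used the length of 1 transcript per gene.

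Gene positions, GC content and length came from GENCODE v44 lifted to GRCh37 (13370 names matched directly, 977 through an older symbol, 2875 not), which need not be the authors' annotation. Promoters came from RefSeq, on GRCh38.p14. Genes shown library by library are the called members, the 3 smallest p-values and 2 lowest fold changes of each compartment, and members whose call changed when 1 library was left out. Of the other lists, called members were to be named, at most 8 in each. Library values of *FARSA*, *AARS* and the cysteine pair, and further list genes, were added after seeing the data. The value of 1 gene of these lists is not reported here. The members, the lists and the subgroups were chosen with earlier results of these data known. Alternatives were DESeq2 1.42.0, limma-voom (limma 3.58.1), other scalings and filters, robust dispersion, other thresholds, glmTreat, a replicate block, a correction for GC content and length through splines of 5 degrees of freedom (87.2% of tested genes had both) and leaving out each library. The fit was tested on simulated data with fewer changed genes than were called here. There it called 0 of 100 genes with a true log2 change of 0.6 and 56 of 100 with a change of 1. With fewer changed genes the adjusted p-value threshold is harder to reach, so these shares need not hold for the real libraries. A synthetase gene without a call may still have changed. No set test was made.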

Additional observations from a re-analysis of the deposited data

Results flagged for a closer look

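The share of reads that were not aligned, which the table gives outside its gene counts, averaged 16.1% ± 0.329 (SD, n = 3) in the ASO_LINC#3 libraries and 13.7% ± 0.450 in the ASO_CTRL libraries. It was higher in every ASO_LINC#3 library than in every control, with p = 0.1 in an exact two-sided permutation test, the smallest possible with 3 libraries against 3. Its part in the values of the synthetase genes was not tested.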

How the results depend on the processing

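The 3 cytosolic calls were 5 with DESeq2 (adding *MARS* and *TARS*), 6 at an adjusted p-value of 0.05, 0 with glmTreat at a log2 fold change of 0.5 and from 0 to 6 when 1 library was left out, with 0 without any 1 control, 1 without ASO_LINC#3 replicate 1 or 2 and 6 without replicate 3. When 1 library was left out, mitochondrial calls were 0 to 1 and the mitochondrial median was from -0.26 (without ASO_LINC#3 replicate 3) to -0.16. Mitochondrial genes lower without overlap were 6 of 16 without ASO_LINC#3 replicate 3, an alternative chosen after seeing the data, when 29.8% of all genes were.

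Over all genes, 1106 calls were 1739 with the correction for GC content and length, 2465 at an adjusted p-value of 0.05, 384 with glmTreat and 359 to 2616 when 1 library was left out, with the lowest number without ASO_CTRL replicate 3 and the highest without ASO_LINC#3 replicate 3. Without a filter, *FARSB* missed the threshold (adjusted p = 0.0104 in edgeR). Same-numbered libraries did not deviate together (correlations of 0.06, -0.15 and -0.18), and differently numbered ones gave correlations from -0.14 to 0.19. With 3 libraries per group these values cannot settle whether the numbers pair the samples. With a replicate block, 656 genes and 1 cytosolic synthetase, *CARS*, were called, and with the block and the correction 1185 and 4.

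*CARS*, *GARS* and *FARSB* kept their direction in the 17 alternative fits run for each. Small fold changes turned sign. *HARS* was -0.012 with limma-voom. When 1 library was left out, *HARS* ranged from -0.19 to 0.17, *KARS* from -0.10 to 0.052, *VARS2* from -0.18 to 0.11, *IARS2* from -0.13 to 0.11, *LARS2* from -0.36 to 0.29, *EARS2* from -0.36 to 0.061, *FARSA* from -0.43 to 0.016, *AARS2* from -0.49 to 0.0053, *EPRS* from -0.18 to 0.10 and *WARS2* from -0.27 to 0.066. The difference in pair ratio ranged from -0.36 to 0.21 for *FARSA* over *FARS2* (0.0013 with a prior count of 0.5), from -0.24 to 0.47 for glutamate, from -0.26 to 0.28 for arginine and from -0.0040 to 0.52 for tryptophan. The causes were not tested. Depth limited *PARS2* most, with 2 to 19 reads per library.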
